A study of Mus musculus with 4 samples.

Results

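The genes described here encode the machinery of mitosis and chromosome segregation. A list of 48 was taken by gene symbol, and each gene was read by its probe set with the highest mean intensity over the arrays. Of the 48 genes, 47 were measured among 18193 genes in all. Ccnb1, which encodes cyclin B1, is not analysed here. Splenic CD8 T cells of wild-type B6 mice were sorted, and their RNA was measured on 4 Affymetrix mouse arrays, 2 per group. The Ly49+ group was CD44+CD122+Ly49+ cells, called CD8 Treg in the labels. The Ly49- group was CD44+CD122+Ly49- cells, called conventional memory type. Both groups shared the CD44+CD122+ sort gate, and no treatment or age is given in the labels. The labels name no animal or pool behind a replicate. The p-values therefore rest on the spread between arrays of a group, and that spread may be technical.

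A cell enters mitosis when mitotic cyclins activate the kinase Cdk1. Chromosomes are then condensed, attached to spindle microtubules at their kinetochores and held by a checkpoint until every attachment is made, and the anaphase-promoting complex (APC/C) starts separation by marking proteins for destruction. Memory CD8 T cells are mostly resting, with a slow turnover driven by cytokines that signal through CD122, and transcripts of these genes are known to be scarce in resting cells and to accumulate in G2 and mitosis. Much of that timing is known to act through promoters with a CCAAT box, bound by NF-Y, and a CHR element, bound by the MuvB core: as the DREAM complex it represses in resting cells, and with B-Myb and FoxM1 it activates in cycling cells.

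The promoter windows of 4 genes show these elements. They belong to the 4 genes with the smallest p among those whose window was at hand and held both elements. Ccna2 and Tpx2, whose p was smaller than that of Ncapg and Ccnb2, had no window at hand. The printed parts run from 180 bases before to 30 bases after the annotated start (RefSeq, GRCm38.p6, written 5′ to 3′ on the gene's strand). Capitals mark each CHR match (TTTGAA or TTCGAA) and each CCAAT match, which reads ATTGG on the other strand.
Cdca8, chr4:124936888-124937097, minus strand: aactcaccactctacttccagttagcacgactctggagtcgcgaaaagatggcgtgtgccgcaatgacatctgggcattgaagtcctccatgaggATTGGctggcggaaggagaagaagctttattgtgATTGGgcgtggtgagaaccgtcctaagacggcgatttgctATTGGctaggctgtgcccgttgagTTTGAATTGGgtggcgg
Hmmr, chr11:40733408-40733617, minus strand: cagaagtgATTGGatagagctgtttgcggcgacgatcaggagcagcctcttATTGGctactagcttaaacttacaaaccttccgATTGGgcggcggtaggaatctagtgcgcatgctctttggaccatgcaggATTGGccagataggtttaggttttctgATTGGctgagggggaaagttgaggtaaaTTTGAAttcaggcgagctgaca
Ncapg, chr5:45669745-45669954, plus strand: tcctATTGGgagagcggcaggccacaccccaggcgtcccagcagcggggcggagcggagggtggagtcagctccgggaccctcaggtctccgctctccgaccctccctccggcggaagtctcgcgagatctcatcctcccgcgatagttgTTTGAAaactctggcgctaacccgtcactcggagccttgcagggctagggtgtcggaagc
Ccnb2, chr9:70421525-70421734, minus strand: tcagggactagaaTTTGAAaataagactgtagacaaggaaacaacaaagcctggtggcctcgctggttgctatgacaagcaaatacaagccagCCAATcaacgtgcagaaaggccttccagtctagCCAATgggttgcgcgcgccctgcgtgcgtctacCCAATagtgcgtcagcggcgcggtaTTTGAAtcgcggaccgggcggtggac
In Cdca8, Hmmr and Ccnb2, a CHR match began at base 14, 9 and 5, counted from 1 at the annotated start, and in Ncapg it began at base -30.

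All 47 mitosis genes were lower in Ly49+ than in Ly49- cells, as were 65.3% of all genes. Of the 47, 29 passed the test. None was called higher by limma, also at an unadjusted p under 0.05, where 45 were lower, as were 13% of all genes at that unadjusted level. Of all genes, 2.04% were called lower and 1.93% higher at an adjusted p under 0.05 (limma on log2(intensity + 16), Benjamini-Hochberg over all genes). The median log2 fold change of the 47 genes, as Ly49+ over Ly49-, was -0.44, a 1.35-fold lower level, and that of all 18193 genes was -0.04. Each of the 47 genes had both Ly49+ arrays below both Ly49- arrays, as did 35.2% of all genes. In bulk RNA, fewer cycling cells and less of these transcripts per cell cannot be told apart.

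**Figure D1:**
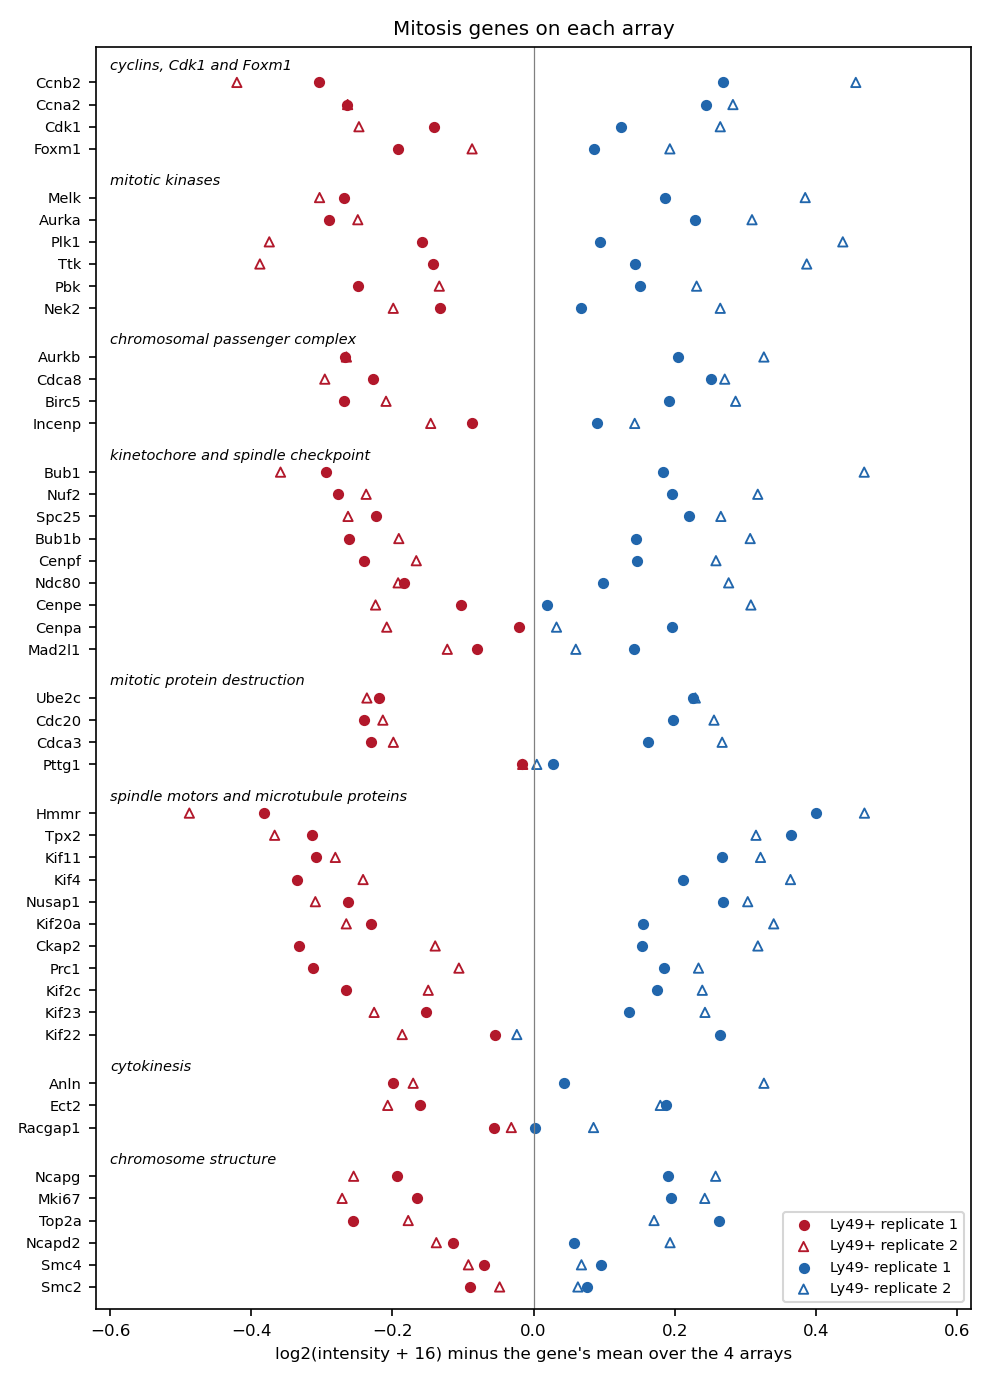
Each row is a mitosis gene and each point an array, placed by log2(intensity + 16) minus the gene's mean over the 4 arrays (Ly49+ red, Ly49- blue; circles replicate 1, triangles replicate 2). In all 47 rows the red points lie left of the blue ones.

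Within groups, the arrays differed less than between them. The mean of the 47 genes, centred per gene on the log2 scale, was -0.20 and -0.22 on the Ly49+ arrays and 0.17 and 0.26 on the Ly49- arrays. Ly49- replicate 2 was above Ly49- replicate 1 in 38 of the 47 genes, as in 49.5% of all genes. The median difference was 0.08, where the median over all genes was -0.00. Ly49+ replicate 2 was above Ly49+ replicate 1 in 21 of the 47 genes, as in 50.6% of all genes. Against Ly49- replicate 1 alone, the median of the 47 genes was -0.39 on Ly49+ replicate 1 and -0.40 on Ly49+ replicate 2, and against Ly49- replicate 2 it was -0.50 on both.

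The number of calls depended on every array. Fits without Ly49+ replicate 1, Ly49+ replicate 2, Ly49- replicate 1 or Ly49- replicate 2 called 11, 11, 5 and 0 of the 47 genes lower, and the same fits called 0.533%, 0.566%, 0.176% and 0.154% of all genes lower. The 47 genes stayed below 0 in each of these fits, with medians of -0.42, -0.45, -0.48 and -0.39. Without Ly49- replicate 2, the 29 genes had limma adjusted p between 0.055 and 0.23, and 41 of the 47 were lower at an unadjusted p under 0.05, as were 9.26% of all genes. Ccna2, Ccnb2, Birc5, Cdca8 and Nusap1 were called in each of the other 3 fits.

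The arrays were alike in overall level, with medians between 188.5 and 190.4 and pairwise correlations of log2 values between 0.996 and 0.998. The 3′ to 5′ ratio of the Actb control was 1.26 and 1.29 on Ly49+ arrays and 1.37 and 1.34 on Ly49- arrays. That of Gapdh was 1.71 and 1.70 against 1.74 and 1.75. On Ly49- replicate 1 the older 3′ control probe set for the bacterial spike-in bioB read 702, and between 2750 and 3084 on the other arrays, while the newer probe set for it read between 2833 and 3111 on all 4. Of 11 T-cell markers measured, none was called in either direction by limma, and their median log2 fold change was -0.01. All 11 macrophage and monocyte markers were called higher, with summed intensities of 23282 and 26269 on Ly49+ arrays and 15341 and 15412 on Ly49- arrays, and leaving out an array kept 3 to 9 of these calls. NK-cell markers were higher in 5 of 7 genes, with sums of 25685 and 25732 against 12858 and 12867. Of 9 dendritic-cell markers, 4 were higher, with sums of 30719 and 32550 against 20660 and 20046. Neutrophil markers fell in 2 of 7 genes, S100a8 and S100a9, with sums of 1401 and 1489 against 1864 and 1944, and neither passed in any fit that left out an array. Of 10 B-cell markers, Cd22 was higher (2191 and 2361 against 1082 and 1095, limma adjusted p = 0.00013) and Cd79b lower (2050 and 2020 against 2488 and 2462, adjusted p = 0.027), with sums of 18819 and 20145 against 18935 and 19995. Of 9 plasma-cell markers, Igha fell (642 and 622 against 1222 and 1557, adjusted p = 0.0015), with sums of 12302 and 11983 against 13573 and 12267. Cd22 and Igha passed in all 4 fits that left out an array, and Cd79b in none. Of 8 erythroid markers, 0 were called by limma in either direction, with sums of 10525 and 10343 against 10537 and 10349. The part of these differences in the lower mitosis genes was not tested.

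**Figure D2:**
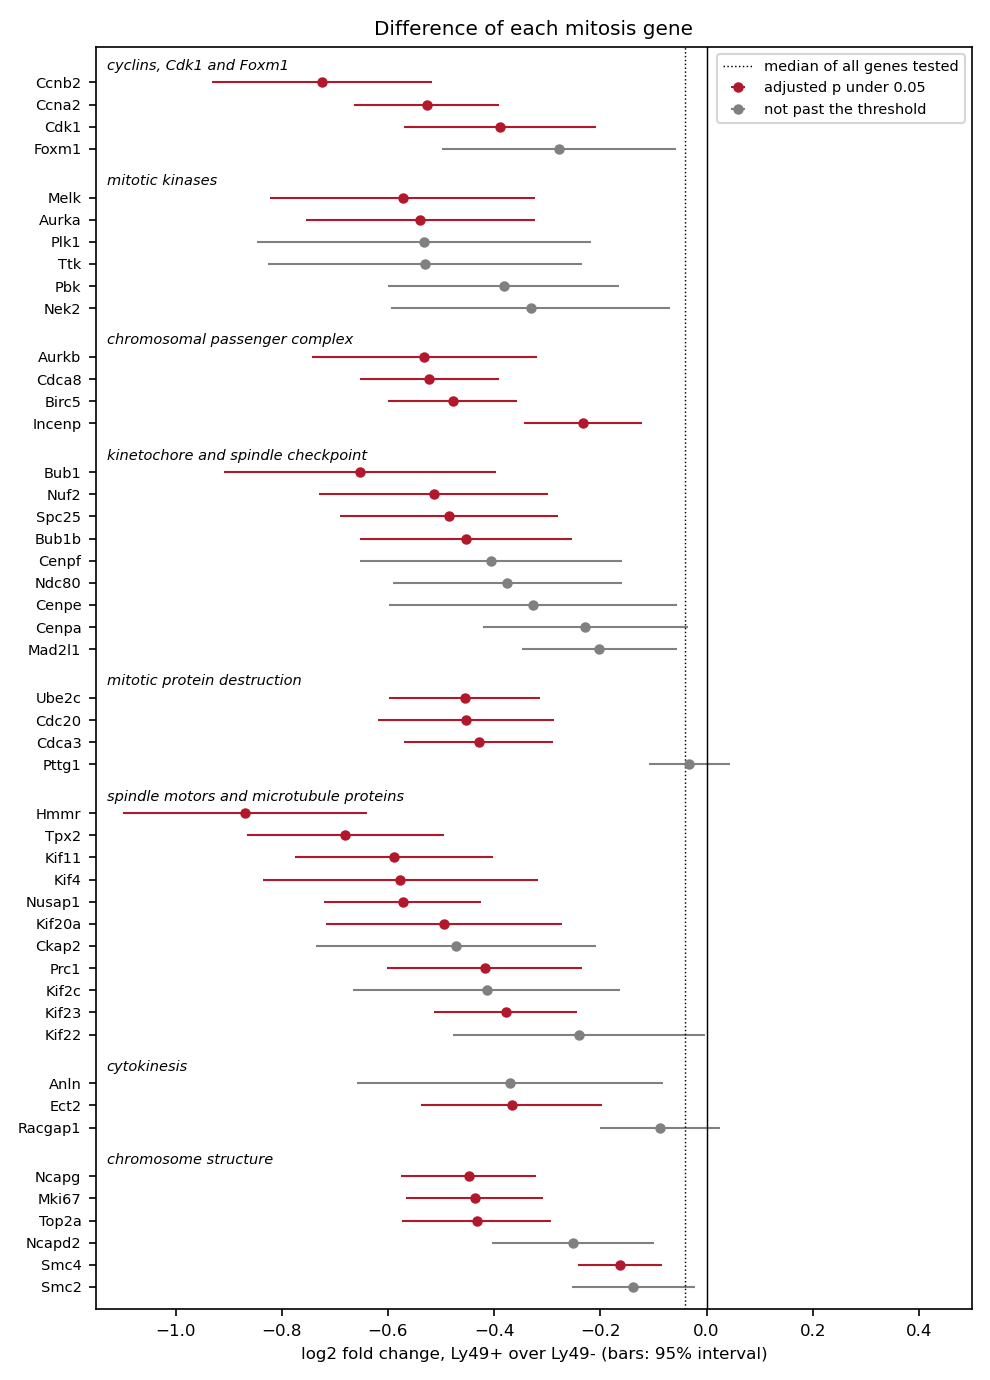
Log2 fold change of each mitosis gene, Ly49+ over Ly49-, with its 95% interval from limma (2 arrays per group), ordered by role. The 29 genes past the threshold are red, and the values run from -0.87 for Hmmr to -0.03 for Pttg1.

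The cyclins and Cdk1 fell in Ly49+ cells, and the transcription factor Foxm1 did not pass. Ccnb2, which encodes cyclin B2, an activator of Cdk1, read 752 and 693 in Ly49+ cells, against 1127 and 1286 in Ly49- cells. It was 1.65-fold lower (log2 fold change -0.72 ± 0.09 SE, limma adjusted p = 0.0039). Ccna2, which encodes cyclin A2 of S phase and G2, read 1497 and 1498 against 2137 and 2194 (-0.53 ± 0.06, adjusted p = 0.0026). The Ly49+ arrays were nearly equal there, and the gap to the lower Ly49- array was 1.43-fold. A further Ccna2 probe set, in a fit over single probe sets, gave -0.74 (adjusted p = 0.0069). Cdk1, the kinase that drives entry into mitosis, read 1101 and 1022 against 1327 and 1464 (-0.39 ± 0.08, adjusted p = 0.031). Foxm1, an activator of G2 and mitosis genes, read 431 and 465 against 526 and 568 (-0.28 ± 0.10, adjusted p = 0.17). The groups did not overlap for any of these 4 genes, as for all 47. Over all genes, 35.2% had both Ly49+ arrays below both Ly49- arrays. Cdk1 missed the threshold whichever array was left out, after quantile normalization (adjusted p = 0.054) and without a trend of the spread (0.095).

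Among 6 mitotic kinases, 2 fell and 4 did not pass, with a median of -0.53. Aurka, the kinase of centrosomes and spindle poles, read 360 and 371 in Ly49+ cells, against 523 and 554 in Ly49- cells (log2 fold change -0.54 ± 0.10, limma adjusted p = 0.017). Melk, a kinase abundant in dividing cells, read 276 and 269 against 385 and 444 (-0.57 ± 0.11, adjusted p = 0.024). Ly49+ arrays lay within a narrow range for both genes, well below the Ly49- arrays. Ttk, the checkpoint kinase MPS1, read 286 and 239 against 352 and 420 (-0.53 ± 0.13, adjusted p = 0.064). Pbk, a kinase of mitotic cells, read 419 and 455 against 557 and 590 (-0.38 ± 0.10, adjusted p = 0.070). Ttk, Pbk and Ckap2 (0.065) lay just outside the threshold, and Cdk1, Incenp and Smc4 just inside it (0.031 to 0.037). Plk1, a master kinase of mitosis, differed by -0.53 ± 0.14 (adjusted p = 0.078), with a wide spread on its Ly49- arrays at 370 and 474. The smallest difference in this group was that of Nek2, a centrosome kinase, at -0.33 (adjusted p = 0.17). In the fit over single probe sets, a further Nek2 probe set, at 69 against 107, gave -0.54 (limma adjusted p = 0.045). Its others read below 65.4, the highest mean of bacterial controls absent from mouse RNA. Aurka and Melk each missed the threshold whichever array was left out, and Aurka when its probe sets were averaged (0.23). The further Aurka probe set in that average, at 55 against 51, read below the bacterial control level of 65.4.

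All 4 genes of the chromosomal passenger complex fell. This complex carries Aurora B kinase along the chromosomes and corrects faulty attachments. Cdca8, which encodes its subunit borealin, read 1949 and 1857 in Ly49+ cells, against 2722 and 2759 in Ly49- cells. It had the smallest adjusted p of the 47 genes (log2 fold change -0.52 ± 0.06, limma adjusted p = 0.0022), and its further probe sets gave -0.64 and -0.56. Birc5, which encodes survivin, read 3383 and 3527 against 4661 and 4978 (-0.48 ± 0.05, adjusted p = 0.0025). Aurkb, the kinase itself, read 432 and 433 against 606 and 660 (-0.53 ± 0.09, adjusted p = 0.017). These 3 genes were lower by nearly the same factor, 1.39-fold to 1.45-fold. Incenp, the scaffold, read 4151 and 3986 against 4695 and 4874, a smaller difference of -0.23 ± 0.05 (adjusted p = 0.036), on an _x_at probe set. Its further probe sets, in the fit over single probe sets, gave -0.20, -0.12, -0.002 and 0.08, and none of these was called. Incenp missed the threshold whichever array was left out, after quantile normalization (0.071), when its 5 probe sets were averaged (0.56) and without a trend (0.16), and Aurkb missed it whichever array was left out.

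Of 9 kinetochore and checkpoint genes, 4 fell and 5 did not pass, with a median of -0.41. Bub1, a checkpoint kinase at kinetochores, read 427 and 408 in Ly49+ cells, against 602 and 736 in Ly49- cells, and was 1.57-fold lower (log2 fold change -0.65 ± 0.11, limma adjusted p = 0.016). Bub1b, which encodes the checkpoint protein BubR1, read 689 and 725 against 919 and 1030 (-0.45 ± 0.09, adjusted p = 0.025). The spread of both genes was larger on the Ly49- arrays. Nuf2 and Spc25 encode subunits of the NDC80 complex, which grips microtubules. Nuf2 read 412 and 424 against 578 and 630 (-0.51 ± 0.09, adjusted p = 0.021), and Spc25 read 434 and 422 against 596 and 616 (-0.49 ± 0.09, adjusted p = 0.021). A further Spc25 probe set, at means of 148 against 132, gave 0.15 (adjusted p = 0.59), and Spc25 missed the threshold when its probe sets were averaged (0.33). Ndc80, the subunit that names the complex, differed by -0.38 (adjusted p = 0.071), and Cenpf, a kinetochore protein of late G2, by -0.41 (0.085). Cenpe, a kinetochore motor, differed by -0.33 (0.19), and its further probe set gave -0.61 (0.026). Cenpa, the histone variant that marks centromeres, differed by -0.23 (0.20). The smallest difference was that of Mad2l1, which encodes the checkpoint protein Mad2, at -0.20 (0.14). None of the 4 called genes passed in any fit that left out an array, and Bub1 and Bub1b did not pass without a trend (0.055 and 0.065).

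Among genes of mitotic protein destruction, 3 of 4 fell. Ube2c, the ubiquitin-conjugating enzyme of the APC/C, read 1298 and 1283 in Ly49+ cells, against 1774 and 1777 in Ly49- cells (log2 fold change -0.46 ± 0.06, limma adjusted p = 0.0057). Cdc20, the APC/C activator held back by the checkpoint, read 888 and 904 against 1207 and 1258 (-0.45 ± 0.07, adjusted p = 0.011). Cdca3, which promotes entry into mitosis through destruction of the inhibitory kinase Wee1, read 1851 and 1893 against 2435 and 2621 (-0.43 ± 0.06, adjusted p = 0.0068). Replicates of these genes lay close together, and the groups were at least 1.29-fold apart between their nearest arrays. Pttg1, which encodes securin, the inhibitor of the enzyme that cleaves cohesin, stood apart. It read 14575 and 14590 against 15029 and 14793, a difference of -0.03 with a 95% interval from -0.11 to 0.04 (adjusted p = 0.68), and its further probe sets gave -0.05 and -0.06. Without Ly49- replicate 1 or Ly49- replicate 2, or without Ly49+ replicate 2, none of the 3 called genes passed, and without Ly49+ replicate 1 Ube2c did. Cdca3 also missed the threshold when its probe sets were averaged (adjusted p = 0.35) and on its probe set left without _x_at, _s_at or _a_at ones (0.69). Its further probe sets, at means of 15 against 15 and 9.8 against 11, read below the bacterial control level of 65.4.

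Of 11 spindle motors and microtubule proteins, 8 fell, with a median of -0.50, and Hmmr among them had the largest difference of the 47 genes. Hmmr, a spindle pole protein also known as the hyaluronan receptor RHAMM, read 279 and 258 in Ly49+ cells, against 491 and 516 in Ly49- cells. It was 1.83-fold lower (log2 fold change -0.87 ± 0.10, limma adjusted p = 0.0028), and its lower Ly49- array was 1.76-fold above its higher Ly49+ array. Another probe set of Hmmr gave -0.91 (adjusted p = 0.0071), while a dimmer one, at 120 against 102, gave 0.20 (0.66). Tpx2, which activates Aurora A on spindle microtubules, read 585 and 563 against 946 and 914 (-0.68 ± 0.08, adjusted p = 0.0033), with -0.71 from a further probe set. Nusap1, which bundles spindle microtubules, read 1225 and 1186 against 1778 and 1822 (-0.57 ± 0.06, adjusted p = 0.0025). Kif11, the motor Eg5 that pushes spindle poles apart, read 567 and 578 against 853 and 886 (-0.59 ± 0.08, adjusted p = 0.0061). Each of these 4 genes had replicates within a narrow range.

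The other 4 called genes of this group act in the central spindle of late mitosis. Kif4, a chromosome-bound motor, fell by 0.58 on the log2 scale, Kif20a, a motor of the midzone, by 0.50, Prc1, which cross-links midzone microtubules, by 0.42, and Kif23, the motor of centralspindlin, by 0.38, with limma adjusted p between 0.010 and 0.027. Ckap2, a microtubule stabiliser, and Kif2c, a microtubule-depolymerising motor, differed by -0.47 and -0.41 (adjusted p = 0.065 and 0.084). The smallest difference was that of Kif22, which pushes chromosome arms, at -0.24 (0.27). It read 1008 and 918 in Ly49+ cells, against 1260 and 1030 in Ly49- cells, so that the groups nearly touched. A further probe set of Kif22 gave -0.43 (0.042). Without Ly49- replicate 1, Nusap1 alone of the 8 passed, and without a trend Kif20a, Kif23 and Prc1 did not pass. Without Ly49+ replicate 1 or 2, some of the 8 did not pass. With probe sets averaged per gene, Kif23, Nusap1 and Tpx2 did not pass (up to 0.19). Those averages took in probe sets of Kif23 (22 against 23) and Tpx2 (23 against 25 and 25 against 20) below the bacterial control level of 65.4. The further Nusap1 probe set, at 68 against 64, read near that level.

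Of the cytokinesis genes, Ect2 fell and the other members did not pass. Ect2, which activates the GTPase RhoA at the cleavage furrow, read 824 and 798 in Ly49+ cells, against 1054 and 1048 in Ly49- cells (log2 fold change -0.37 ± 0.07, limma adjusted p = 0.031). Anln, which encodes the furrow protein anillin, read 150 and 153 against 180 and 223 (-0.37 ± 0.13, adjusted p = 0.16), with Ly49- arrays far apart. Racgap1, the partner of Kif23 in centralspindlin, read 4346 and 4422 against 4528 and 4795, the smallest difference of the group at -0.09, with a 95% interval from -0.20 to 0.02 (adjusted p = 0.40). Another probe set of Racgap1 gave -0.08. Ect2 missed the threshold whichever array was left out (adjusted p between 0.14 and 0.20), after quantile normalization (0.054) and without a trend (0.052).

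Of 6 genes of chromosome structure, 4 fell. Mki67, the proliferation marker Ki-67 that coats mitotic chromosomes, read 2841 and 2640 in Ly49+ cells, against 3650 and 3776 in Ly49- cells (log2 fold change -0.44 ± 0.06, limma adjusted p = 0.0045). Ncapg, a condensin subunit, read 2432 and 2330 against 3177 and 3331 (-0.45 ± 0.06, adjusted p = 0.0039). Top2a, the topoisomerase that untangles sister DNA, read 1936 and 2044 against 2778 and 2606 (-0.43 ± 0.06, adjusted p = 0.0067). These 3 genes were lower by nearly the same factor, 1.35-fold to 1.36-fold. Smc4, an ATPase core subunit of condensin, read 13450 and 13251 against 15091 and 14809 (-0.16 ± 0.03, adjusted p = 0.037). Ncapd2, a condensin I subunit, differed by -0.25 (adjusted p = 0.084), and Smc2, the partner of Smc4, had the smallest difference at -0.14 (0.20). None of the 4 called genes passed without Ly49- replicate 1 or without Ly49- replicate 2, without Ly49+ replicate 1 Top2a and Smc4 did not, and without Ly49+ replicate 2 Mki67 and Smc4 did not. Top2a and Smc4 did not pass without a trend (up to 0.26) or with probe sets averaged (up to 0.23). The Top2a average took in a probe set below the bacterial control level (59 against 65) and another at 245 against 256 (-0.06).

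The 47 genes had 62 further probe sets in 32 genes, which were read in a separate limma fit over all 34945 probe sets with 1 symbol. Of these, 16 read below the highest mean of the bacterial controls absent from mouse RNA (65.4) in both groups. Of the other 46, 40 were lower and 6 higher in Ly49+ cells, with a median log2 fold change of -0.29, and limma called 12 lower and 0 higher, where 0.896% of all probe sets were called lower. A difference of under 0.25 from the brightest probe set was seen in 34 of the 46. The 6 on the other side belonged to Cenpa, Hmmr, Incenp, Nusap1, Smc2 and Spc25, with values up to 0.20. The scatter of further probe sets against the brightest one shows these values for each gene. In the fit over probe sets, the brightest ones of Cdk1, Ect2, Incenp, Kif20a, Kif4, Prc1 and Smc4 did not pass. Their limma adjusted p lay between 0.0503 and 0.070, though these genes were called in the fit over genes.

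**Figure D3:**
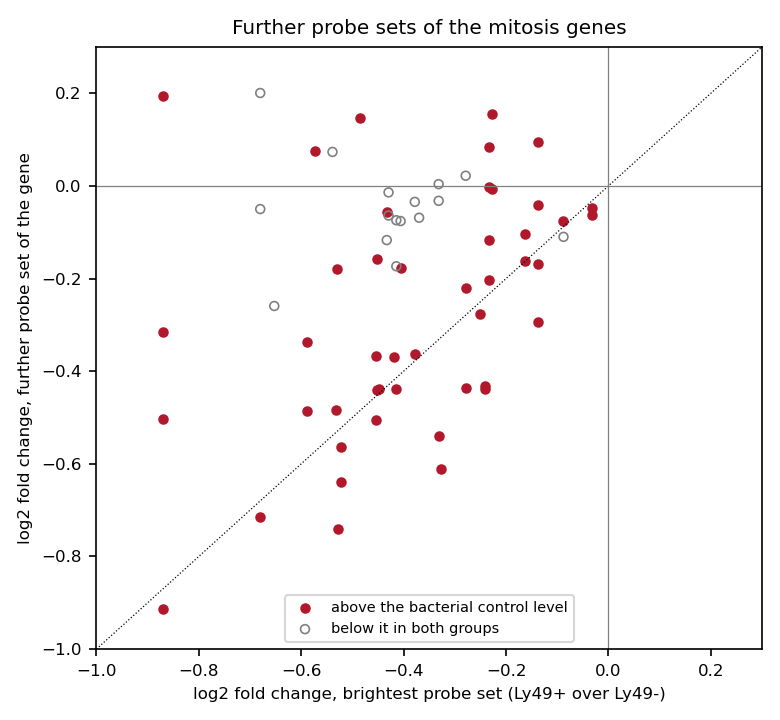
Log2 fold change (Ly49+ over Ly49-) of each further probe set of a mitosis gene against that of its brightest probe set, with the line of equal values dotted. Filled points, above the bacterial control level, lie below 0 in 40 of 46 cases, and open points read below that level in both groups.

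Related genes from lists of the same pathway were read in the same fit. Of all genes in that fit, 2.04% were called lower and 1.93% higher, with a median log2 fold change of -0.04. Of 68 further mitosis genes measured, 13 fell, 0 were called higher and 55 did not pass, with a median of -0.28. Kifc1, a minus-end spindle motor, fell by 0.50 on the log2 scale, Tacc3, a spindle stabiliser, by 0.42, and Spag5, a spindle and kinetochore protein, by 0.62 (limma adjusted p = 0.0056, 0.0097 and 0.011). Of 39 DNA replication genes, 14 fell and 0 were called higher, with a median of -0.24. Gmnn, the licensing inhibitor geminin, fell by 0.37, Rrm1, a ribonucleotide reductase subunit, by 0.45, and Tk1, a thymidine kinase, by 0.40 (0.0063, 0.0087 and 0.0089). Of these called genes, 0 passed without Ly49- replicate 1 or 2. Without Ly49+ replicate 1, 3 of the 13 and 2 of the 14 passed, and without Ly49+ replicate 2, 0 and 1 did.

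Lists of complexes and regulators around mitosis were read beside the same share of all genes, 2.04% called lower and 1.93% higher. The 17 APC/C genes had a median of -0.08, with Fbxo5, the inhibitor Emi1, lower at 1530 and 1636 in Ly49+ cells against 1902 and 2083 in Ly49- cells (log2 fold change -0.33, limma adjusted p = 0.041). Ube2s, which extends ubiquitin chains on APC/C targets, was the exception among the pathway genes as the member called higher, at 3940 and 3346 against 2678 and 2771 (0.41, adjusted p = 0.021). Of 17 other condensin and cohesin genes, Cdca5, which encodes the cohesion factor sororin, fell by 0.52 and Ncapg2, a condensin II subunit, by 0.38, and the median was -0.07. Of 19 E2F, RB and MuvB genes, 3 fell, with a median of -0.09. E2f2, an activator of S-phase genes, read 929 and 888 against 1400 and 1394 (-0.61, adjusted p = 0.0028), and E2f8, a repressor made in cycling cells, read 602 and 540 against 934 and 872 (-0.65, adjusted p = 0.0064). E2f6, a repressor, fell by 0.30 (0.039). None of these 7 genes passed without Ly49- replicate 1 or without Ly49- replicate 2. Without Ly49+ replicate 1, E2f2, E2f8 and Ncapg2 passed, and without Ly49+ replicate 2, E2f2 and Ube2s did.

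**Figure D4:**
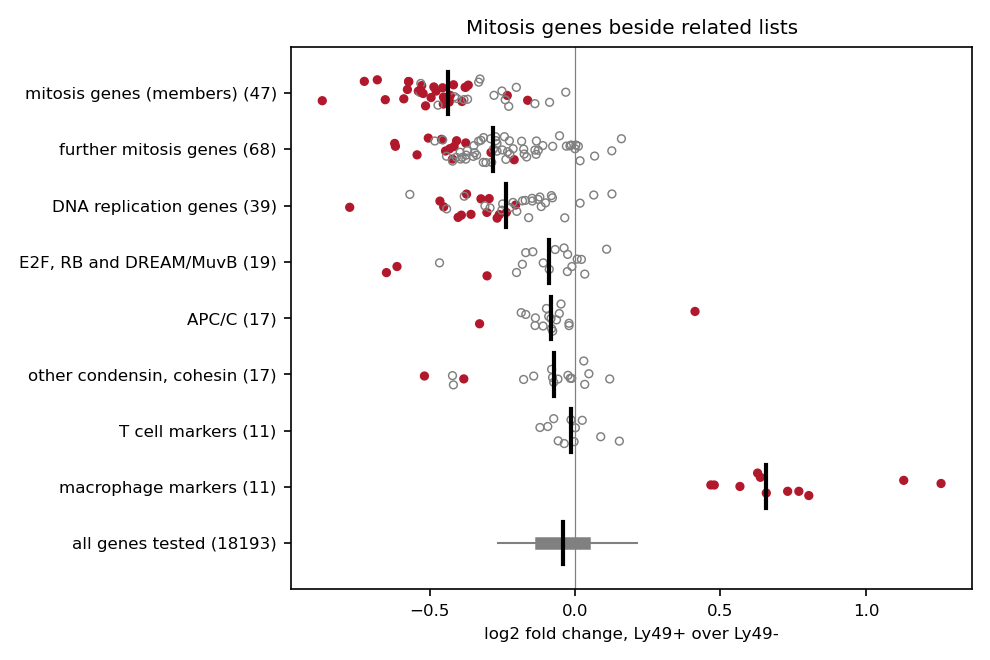
Log2 fold change (Ly49+ over Ly49-) of each measured gene of the mitosis genes and of related lists, with called genes filled and medians as black bars. The bottom row gives the middle 50% (thick) and 90% (thin) of all 18193 genes. The mitosis genes have a median of -0.44, against -0.04 for all genes.

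Promoter windows, from 250 bases before to 50 after the annotated start, were at hand for 39 of the 47 genes (41 windows). Aurkb, Ccna2, Foxm1, Incenp, Kif20a, Pbk, Smc4 and Tpx2 had none in the table used here. A CHR element (TTTGAA or TTCGAA, either strand) lay in 80.5% of the 41 windows, against 15.1% of 18109 windows of the genes tested and 19.2% of all 32851 windows. A CCAAT box (CCAAT, either strand) lay in 78.0%, against 37.4% and 37.4%. Both elements lay in 73.2% of the mitosis windows, against 5.97% of windows of the genes tested and 7.52% of all windows. An E2F-type sequence (the letters TTCGCGC, the variant TTGGCGC or the variant TTCCCGC, either strand) lay in 17.1%, against 11.7% and 8.07%. Ect2 and Prc1 had 2 overlapping windows each, which hold the same sites. Counted by gene, 31 of the 39 had a CHR element (79.5%, against 17.5% of the 14452 genes tested with a window), and 28 had both elements in a window (71.8%, against 7.05%). With each genomic site counted once, 28 of 42 CHR matches (66.7%) began within 50 bases of an annotated start, against 25.7% of 6788 sites in all windows. By the same count, 1 CHR match overlapped a CCAAT match, as printed for Cdca8, and 1 CCAAT match, in Ect2, overlapped an E2F-type one. No test was made of these shares.

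Genes with and without a CHR element had close medians. The 31 genes with one had a median log2 fold change of -0.44, with 19 called lower. The 8 without one had a median of -0.40, with 4 called lower. Of all genes tested, 2.04% were called lower. Among those without a match in the window were Nusap1 and Birc5, which fell, and Pttg1, and among those with one was Racgap1, at -0.09. With and without a CCAAT box, the medians were -0.44 over 30 genes and -0.41 over 9, with 19 and 4 genes called lower.

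**Figure D5:**
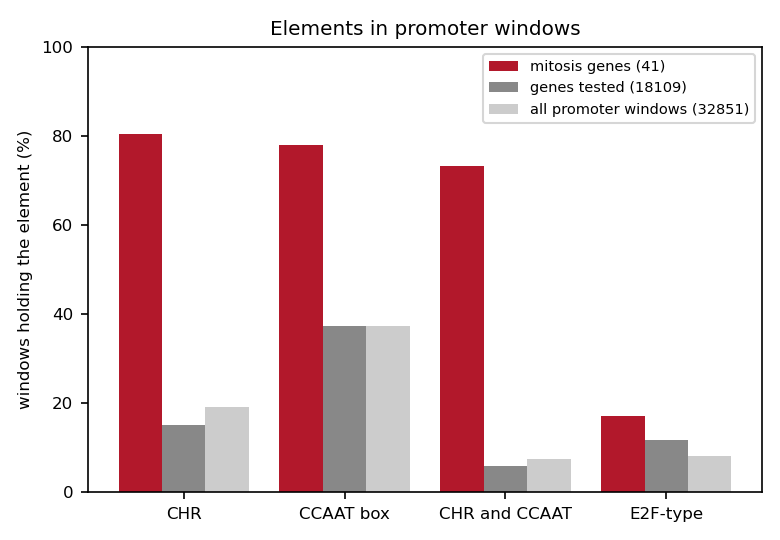
Percent of promoter windows that hold each element, for the mitosis genes (41 windows), the genes tested (18109) and all windows of the table (32851). Both a CHR element and a CCAAT box lie in 73.2% of the mitosis windows, against 5.97% of those of the genes tested.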

How the data were processed

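The authors deposited linear intensities, 1 value per probe set and array, between 8.32 and 43959. The largest gap between array quartiles was 0.04 (log2), and how they were normalized was not given in the sources used here. Per the labels' protocols, total RNA came from an RNeasy kit, and biotinylated cRNA was made as Affymetrix describes. Groups and replicate numbers came from the sample titles.

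Probe sets were named by the platform annotation of 2016. Of 45101, 34945 had 1 gene symbol, 932 several and 9160 none listed, and 64 were controls. A match of gene IDs to RefSeq changed 0 symbols. For each gene the probe set with the highest mean was kept. Values were tested as log2(intensity + 16), so folds of dim genes are understated, with limma 3.58.1 in R 4.3.3 (group as the only term, trend of the spread, 2 residual and 6.66 prior degrees of freedom) and Benjamini-Hochberg adjustment. Tables were read with data.table (version 1.17.8). The fit was run on simulated data whose errors were independent and drawn from its own estimated spread. Such data cannot show whether the replicates here are technical.

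The mitosis genes and all lists were chosen with earlier results of these data known. Named genes were up to 4 with the smallest p of each role and the one with the smallest difference, up to 3 of each pathway list, and any called higher. Others are named where they bear on a result and were picked with their values known. Alternatives are given in the closing section. The number of arrays limits the precision.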

Additional observations from a re-analysis of the deposited data

How the results depend on the processing

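The 47 mitosis genes stayed below 0 under every alternative that kept their brightest probe set, and 0 were called higher by limma under any setting. Without probe sets named _x_at, _s_at or _a_at, 17 of 38 genes were called lower (1.37% of all genes in that fit) and 35 lay below 0. The called genes Spc25 (0.15) and Hmmr (0.20) turned positive there on their other probe sets. The second-brightest probe set, chosen after seeing the data, gave 108 changed genes in all. It gave 6 of 32 mitosis genes lower (0.400% of all genes), 28 below 0 and a median of -0.29. The called genes Aurka (0.0734), Spc25 (0.15) and Nusap1 (0.0758) were positive there. That Aurka probe set, at means of 55 in Ly49+ against 51 in Ly49- cells, read below the bacterial control level of 65.4. The Nusap1 one, at 68 against 64, read near that level, so neither value is read as a reversal. With probe sets averaged per gene, those below the bacterial control level included, 23 mitosis genes were lower (1.45% of all genes). There 20 of the 29 calls were kept and the median was -0.37. Without a trend of the spread, 370 genes changed and 19 mitosis genes were lower (0.835% of all genes), where all arrays with a trend gave 723 and 29 (2.04%). At an adjusted p under 0.1, 1252 genes changed and 37 mitosis genes were lower (4.12% of all genes). Leaving out 1 array gave 100 to 281 changed genes, 0 to 11 mitosis genes lower and medians from -0.48 to -0.39. There a group with 1 array took its spread from the other group. Quantile normalization, no pseudocount, a pseudocount of 64 and a robust spread called 26, 29, 29 and 34 mitosis genes lower and 1.52%, 2.13%, 1.79% and 2.53% of all genes, and the brighter genes alone 27 of 39 and 3.91%. With the replicate block, 1533 genes changed and 38 mitosis genes were lower (5.03% of all genes). The labels do not say that a number marks a shared batch. The differences between replicates 1 and 2 correlated between the groups across genes (r = 0.25), which 2 pairs cannot settle as pairing.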
